A study of Rattus norvegicus with 14 samples.

Results

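The transcripts that encode Wnt ligands, their receptors and their secreted modulators were examined in whole abdominal aortas of 14 female Wistar outbred rats, with 1 Affymetrix Rat Gene 1.1 ST array per animal. Members were the entries of the annotated expression table named Wnt, Fzd, Sfrp, Dkk or Rspo with a number, together with Lrp5, Lrp6, Wif1 and Frzb, and 43 of 19357 genes met this rule. They comprised 19 Wnt ligands, 11 receptors, 9 secreted antagonists and 4 R-spondins. The groups were rats with experimental preeclampsia (ExpPE, n = 5), healthy pregnant rats (Pr, n = 5) and non-pregnant rats (NPr, n = 4). All animals carried a cannula in the jugular vein, placed on day 0 of pregnancy or, in NPr rats, at a matched age, and all were infused for 1 h with 2 ml of fluid 14 days later. ExpPE rats received 1 µg/kg lipopolysaccharide (LPS, a bacterial membrane component that provokes inflammation) in saline and were killed on day 20 of pregnancy. Pr rats received saline alone and were killed on the same day of pregnancy, and NPr rats were not pregnant, received saline and were killed at diestrus. The aortas had been cleaned of the tissue around them. LPS-infused non-pregnant rats are not analysed here, so an effect of LPS as such and the preeclamptic state that it induces cannot be told apart.

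The labels of the pregnant animals conflict. The annotated table marks each column by its infusion, whereas the other deposited table holds the same values (the largest gap was 7.2e-10 on the log2 scale) under sample titles in which the 5 ExpPE and the 5 Pr arrays are exchanged. The column names were followed here. Under the titles every ExpPE vs. Pr difference below has the opposite sign, and the differences of ExpPE and of Pr from NPr change places. The difference of all 10 pregnant animals from NPr does not depend on this choice.

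Wnt proteins are secreted lipid-modified ligands that bind Frizzled (Fzd) receptors at the cell surface. Together with the co-receptors Lrp5 and Lrp6 they stabilise β-catenin, which enters the nucleus and activates target genes with TCF/LEF factors, while other Wnt signals act through calcium or planar cell polarity without β-catenin. Secreted frizzled-related proteins (Sfrp), Frzb and Wif1 bind Wnt ligands outside the cell, Dickkopf (Dkk) proteins act on Lrp5 and Lrp6, and R-spondins (Rspo) amplify the signal by keeping Frizzled receptors at the membrane. In vessels the pathway is known for roles in endothelial growth, smooth muscle proliferation and vessel wall calcification.

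Sequence upstream of the transcription start is shown for Wnt16, Rspo3 and Rspo1, 3 of the 5 members that passed the threshold of the study in a comparison, because these were the 3 with an upstream sequence in the table used. The sequences are the 250 bases before the start in RefSeq (rat build GRCr8), 5′ to 3′ on the plus strand, at chr4:51786478-51786727 for Wnt16, chr1:30112279-30112528 for Rspo3 and chr5:142536040-142536289 for Rspo1. Capitals mark matches to any of 5 short motifs that were searched on both strands and are spelled out after the sequences.
Wnt16: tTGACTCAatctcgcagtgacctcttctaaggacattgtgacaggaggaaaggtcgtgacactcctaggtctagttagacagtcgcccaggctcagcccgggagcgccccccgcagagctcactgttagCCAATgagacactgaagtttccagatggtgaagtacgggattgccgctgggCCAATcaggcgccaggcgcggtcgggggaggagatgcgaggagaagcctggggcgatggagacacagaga
Rspo3: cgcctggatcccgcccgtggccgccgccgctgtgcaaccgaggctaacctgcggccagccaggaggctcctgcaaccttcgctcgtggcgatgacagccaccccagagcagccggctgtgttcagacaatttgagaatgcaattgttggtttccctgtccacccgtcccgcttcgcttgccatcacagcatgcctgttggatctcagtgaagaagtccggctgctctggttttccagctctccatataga
Rspo1: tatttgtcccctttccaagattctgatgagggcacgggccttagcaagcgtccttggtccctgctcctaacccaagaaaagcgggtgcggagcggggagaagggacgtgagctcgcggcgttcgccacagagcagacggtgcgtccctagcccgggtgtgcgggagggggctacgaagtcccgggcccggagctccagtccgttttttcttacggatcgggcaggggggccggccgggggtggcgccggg
The Wnt16 sequence held 1 match to TGACTCA, the AP-1 site bound by Fos and Jun proteins, from -249 to -243 counted from the start of transcription, and 4.05% of 33469 upstream sequences of the same length held these letters. It also held 2 matches to CCAAT, the box of many housekeeping and regulated genes, that began at -121 and -70, and 34% of all upstream sequences held a match. The other motifs were TATAAA of the TATA box, which 12.9% of the upstream sequences held. The core site of the TCF/LEF factors that partner β-catenin, ATCAAAG, was held by 3.15% of them. The E box bound by Myc and related factors, CACGTG, was held by 5.59%. The Rspo3 and Rspo1 sequences held none of the 5 motifs. Their G and C bases made up 58.8% for Wnt16, 60.4% for Rspo3 and 66.4% for Rspo1, and the median over all upstream sequences was 51.2%. Upstream sequences were found for 27 of the 43 members.

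Intensities are given as log2 RMA values, in which a difference of 1 is a doubling. A background level was set at 3.90, the 95th percentile of 1186 odorant, vomeronasal, trace amine and taste receptor genes, and the median of all genes was 5.62. By this measure 36 of the 43 members were above background in at least 1 group mean, with 14 of 19 Wnt ligands, 9 of 11 receptors, 9 of 9 antagonists and 4 of 4 R-spondins. Wnt3, Wnt4, Wnt7a, Wnt8a, Wnt8b, Fzd10 and the entry listed as Fzd7 were not above background. The gene number of that last entry belongs to Cdk15, a kinase gene, in RefSeq, so its values are not read as those of a Frizzled receptor, and the other 42 members matched by number and symbol. The Fzd3 entry pooled 239 probes, against a median of 25 probes per member. Levels of different genes were not ranked, because each gene was measured with its own probes.

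The arrays were alike in scale, with medians between 5.58 and 5.67. Between animals of a group the correlation over all genes was 0.943 to 0.987 in ExpPE, 0.962 to 0.992 in Pr and 0.969 to 0.988 in NPr. All 6 smooth muscle markers were above background, with a summed level (log2) of 13.35 to 14.62 in ExpPE, 13.88 to 14.64 in Pr and 14.09 to 14.81 in NPr, as the aortic label requires. All 7 skeletal muscle fibre markers were also above background, with summed levels of 13.67, 14.10, 11.32, 11.53 and 9.93 in ExpPE aortas 1 to 5. The same markers reached 14.96 in Pr aorta 1 and 9.28 to 9.81 in the other Pr aortas, and 12.02 in NPr aorta 3 and 9.10 to 9.30 in the other NPr aortas. Nerve and Schwann cell markers, 7 of 8 above background with Elavl4 below it, were highest in ExpPE aortas 1 and 2 (12.85 and 12.00), and ranged over the groups from 8.94 to 12.85 in ExpPE, 8.48 to 10.45 in Pr and 8.81 to 9.87 in NPr. The mean of the sensory receptor genes, a gauge of the signal of genes that an aorta is not known to use, was above 2.8 in ExpPE aortas 2, 4 and 5 (3.03, 3.00 and 2.84) and in NPr aorta 1 (2.94). It lay between 2.63 and 2.73 in the remaining 10 arrays. Weights of the arrays by quality, used only in an alternative fit, ran from 0.356 in ExpPE aorta 2 to 3.45 in NPr aorta 2.

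The comparison of ExpPE with Pr aortas asks which Wnt transcripts differ between experimental preeclampsia and healthy pregnancy. Wnt16, a ligand that signals both with and without β-catenin, and Rspo3, an R-spondin with a known role in endothelial cells, were lower in ExpPE aortas at the study threshold, and Rspo2 was higher. This threshold asks for a fold change of more than 1.4 and, before any adjustment, for a limma p-value below 0.05. It was met by 1 member in the higher direction (background: 1.72% of all genes) and by 2 members in the lower direction (background: 1.00% of all genes). None of the 43 members, and 0% of all genes, had an adjusted p under 0.05 (limma with Benjamini-Hochberg adjustment over all genes), and the unadjusted p was under 0.05 for 6 of 43 members (14%) and for 8.48% of all genes.

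Wnt16 measured 4.58, 4.89, 5.91, 6.24 and 5.31 in ExpPE aortas 1 to 5, 6.26, 7.31, 6.03, 6.85 and 5.67 in Pr aortas 1 to 5 and 5.94, 5.92, 4.62 and 5.77 in NPr aortas 1 to 4. ExpPE aortas 1, 2 and 5 were below every Pr aorta, and ExpPE aortas 3 and 4 lay among the lower Pr values. The group means were 5.39 ± 0.69 in ExpPE and 6.42 ± 0.65 in Pr (SD, n = 5 each). The log2 difference was -1.04 (SE 0.37), a ratio of 0.488, with an adjusted p of 0.5745 in limma, and an exact two-sided permutation test over these 10 animals gave p = 0.0476. The smallest p that this test allows is 0.00794 for 5 against 5 animals and 0.0159 for 5 against 4. As in all measurements of whole tissue, fewer cells of a type and less RNA per cell cannot be told apart here. The difference was -0.60 and no longer at the study threshold (adjusted p = 0.709, limma) without ExpPE aortas 1 and 2, which had high skeletal muscle and nerve marker levels and the lowest Wnt16 values of their group. Leaving out the lowest values of the lower group shrinks the difference by construction. Pr aorta 1, with the highest skeletal muscle marker level of all animals (14.96), measured 6.26 for Wnt16. The part of these markers in the difference was not tested. The Wnt16 difference was -1.18, at the study threshold, without the 4 arrays whose sensory receptor mean exceeded 2.8. Of the ExpPE group that fit keeps only aortas 1 and 3, and aorta 1 had the lowest Wnt16 value of all animals, at 4.58. The members at the threshold in that fit were Wnt16, Rspo1 and Sfrp5.

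The other 18 Wnt ligands differed by at most 0.46. Of all 19 ligands, 17 were higher in ExpPE than in Pr, with Wnt16 and Wnt5b as the exceptions, and their median difference was 0.23, beside 0.02 for all genes. The sensory receptor genes moved the same way, with 936 of 1186 higher in ExpPE and a median of 0.12. Without the 4 arrays whose sensory receptor mean exceeded 2.8, 10 ligands were higher and 9 lower, with a median of 0.01. Of the ExpPE group that fit keeps only aortas 1 and 3. The median of the sensory receptor genes was then -0.07, but its fall follows from the choice of these arrays by the same genes. The part of the array background in the ligand differences was not tested. Without ExpPE aortas 1 and 2 the ligands stood at 16 higher and 3 lower.

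Wnt11, a ligand known mainly for signals without β-catenin, had a log2 difference of 0.46 (SE 0.19, exact permutation p = 0.0397). Wnt9a, which acts in joint and skeletal development, had one of 0.29 (SE 0.12, exact permutation p = 0.0317). Their adjusted p was 0.5745 each in limma and neither reached the fold change of 1.4. Wnt10b, a β-catenin ligand that restrains fat cell formation, averaged 3.98 in ExpPE and 3.59 in Pr, so it was above background through ExpPE alone, and no test of it is read. Without the 4 arrays of high sensory receptor level the differences were 0.31 for Wnt11 and 0.18 for Wnt9a. Wnt5a and Wnt7b, ligands that were above background, differed by 0.04 and 0.01.

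**Figure D1:**
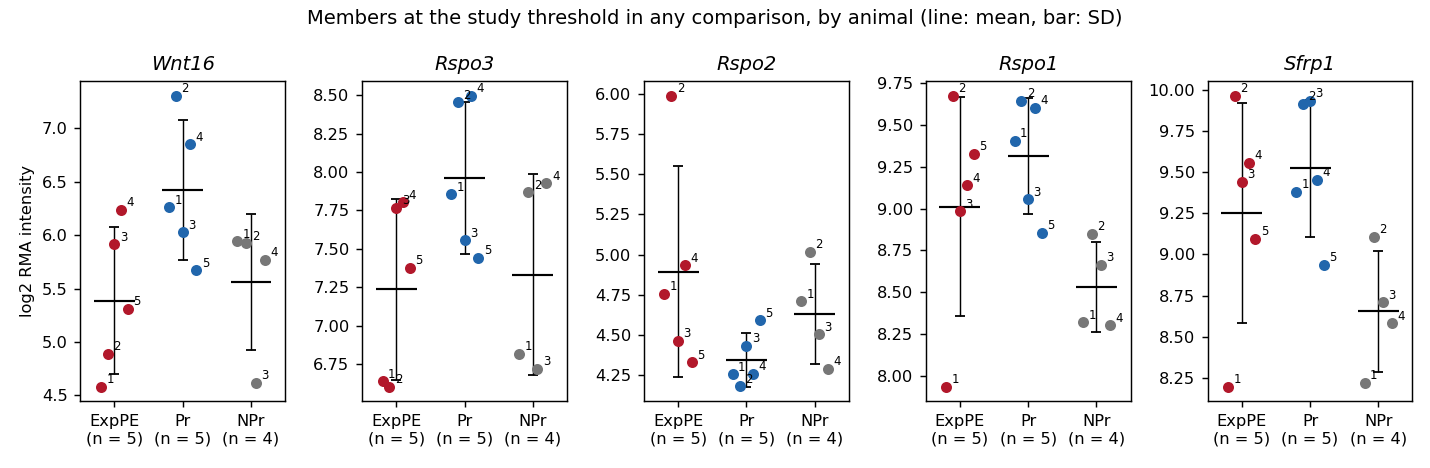
Log2 RMA intensity of Wnt16, Rspo3, Rspo2, Rspo1 and Sfrp1 in each aorta of ExpPE (n = 5), Pr (n = 5) and NPr (n = 4) rats, with numbers for the animals, a line at the group mean and a bar for the SD. ExpPE aortas 1 and 2 have the lowest Wnt16 and Rspo3 values of their group, ExpPE aorta 2 has the highest Rspo2 value (5.99), and for Rspo1 every Pr value lies above every NPr value.

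The receptors differed little between ExpPE and Pr. Without the entry listed as Fzd7, the differences of the other 10 ran between -0.27 and 0.26 on the log2 scale, 6 were higher and 4 lower, and none had an unadjusted p under 0.05. The most negative was that of Lrp6, a co-receptor needed for β-catenin signalling, at -0.27 (adjusted p = 0.575, limma), and the most positive was that of Fzd2 at 0.26. Fzd4, a receptor with a known role in retinal vessels, differed by -0.02 and the co-receptor Lrp5 by 0.01. Without ExpPE aortas 1 and 2, in which Fzd2 measured 7.68 and 8.04 against 8.76 to 8.87 in the other ExpPE aortas, Fzd2 was the only member at the study threshold.

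The antagonists had a median difference of -0.25, with 3 higher and 6 lower, and none had an unadjusted p under 0.05. Sfrp2, a Wnt-binding protein made by fibroblasts, had the most negative difference, -0.79 (SE 0.43, adjusted p = 0.575, limma). It measured 9.37, 11.41, 10.77, 10.15 and 9.90 in ExpPE aortas 1 to 5, 10.95, 12.07, 10.78, 11.86 and 9.90 in Pr aortas 1 to 5 and 9.80, 10.85, 10.36 and 10.66 in NPr aortas 1 to 4, and the groups overlapped throughout. With arrays weighted by quality Sfrp2 met the study threshold. The 6 adventitial fibroblast markers, all above background, had summed levels (log2) of 13.20 to 13.91 in ExpPE, 13.69 to 14.12 in Pr and 13.58 to 13.95 in NPr. Between ExpPE and Pr, Dpt differed by -0.45, Lum by -0.46 and Pdgfra by -0.30 (adjusted p = 0.5745, 0.581 and 0.606, limma). Dcn and Col1a1 differed by -0.23 and -0.17, and Pi16 went the other way, at 0.18. The part of these markers in the Sfrp2 values was not tested. Frzb, also a Wnt-binding protein, and Dkk3, a divergent member of its family, had their lowest value in ExpPE aorta 2, at 10.25 and 8.20. Their differences were -0.38 and -0.25 with all animals, and 0.11 and 0.38 without ExpPE aortas 1 and 2. Sfrp5, an adipokine that binds Wnt5a, was highest in ExpPE aortas 1 and 2 (8.34 and 8.47), and its difference was 0.53 with them and -0.085 without them. It was 0.88 (SE 0.31, adjusted p = 0.896, limma), at the study threshold, without the 4 arrays of high sensory receptor level. Of the ExpPE group that fit keeps only aortas 1 and 3.

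Among the R-spondins, Rspo3 measured 6.64, 6.60, 7.77, 7.80 and 7.38 in ExpPE aortas 1 to 5, 7.86, 8.45, 7.56, 8.50 and 7.44 in Pr aortas 1 to 5 and 6.82, 7.87, 6.72 and 7.93 in NPr aortas 1 to 4. ExpPE aortas 1, 2 and 5 lay below every Pr aorta, and the other ExpPE aortas were within the Pr range. The log2 difference between ExpPE and Pr was -0.72 (SE 0.32, adjusted p = 0.5745, limma), with p = 0.0873 in the exact permutation test. It was -0.31 and no longer at the study threshold without ExpPE aortas 1 and 2 (adjusted p = 0.784, limma). These had the lowest Rspo3 values of their group, so the difference shrinks by construction. Leaving out ExpPE aorta 1, 2 or 5 or Pr aorta 1, 2 or 4 alone also took Rspo3 out of the study threshold, with differences of -0.57, -0.56, -0.76, -0.75, -0.60 and -0.59 in that order. So did array weights (-0.68), a further quantile normalization (-0.65) and the removal of the 4 arrays of high sensory receptor level (-0.76).

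Rspo2, an R-spondin required in limb and lung development, measured 4.76, 5.99, 4.46, 4.93 and 4.33 in ExpPE aortas 1 to 5, 4.26, 4.18, 4.43, 4.26 and 4.59 in Pr aortas 1 to 5 and 4.71, 5.02, 4.50 and 4.29 in NPr aortas 1 to 4. A single aorta, ExpPE 2, stood above all others, ExpPE aortas 1 and 4 were also above every Pr aorta, and ExpPE aortas 3 and 5 lay within the Pr range. The log2 difference between ExpPE and Pr was 0.55 (SE 0.26, adjusted p = 0.5745, limma), with p = 0.0556 in the exact permutation test. It was 0.28 without ExpPE aorta 2. Leaving out any animal other than ExpPE aorta 3, ExpPE aorta 5 or Pr aorta 5 took Rspo2 out of the study threshold, with differences of 0.51 to 0.59 for the animals other than ExpPE aorta 2, and without the 4 arrays of high sensory receptor level, of which ExpPE aorta 2 is one, the difference was 0.27. Rspo2 was also outside the threshold in a fit of only the groups compared and among genes above background (0.55 each), with arrays centred on their median (0.53), normalized again by quantiles (0.47) or weighted by quality (0.37). Rspo4 and Rspo1 differed by 0.36 and -0.30 and were not at the threshold. Without the 4 arrays of high sensory receptor level Rspo4 differed by 0.0035, and Rspo1 by -0.86 (SE 0.31, adjusted p = 0.896, limma), at the study threshold. Of the ExpPE group that fit keeps only aortas 1 and 3, and aorta 1 had the lowest Rspo1 value of all animals, at 7.93.

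**Figure D2:**
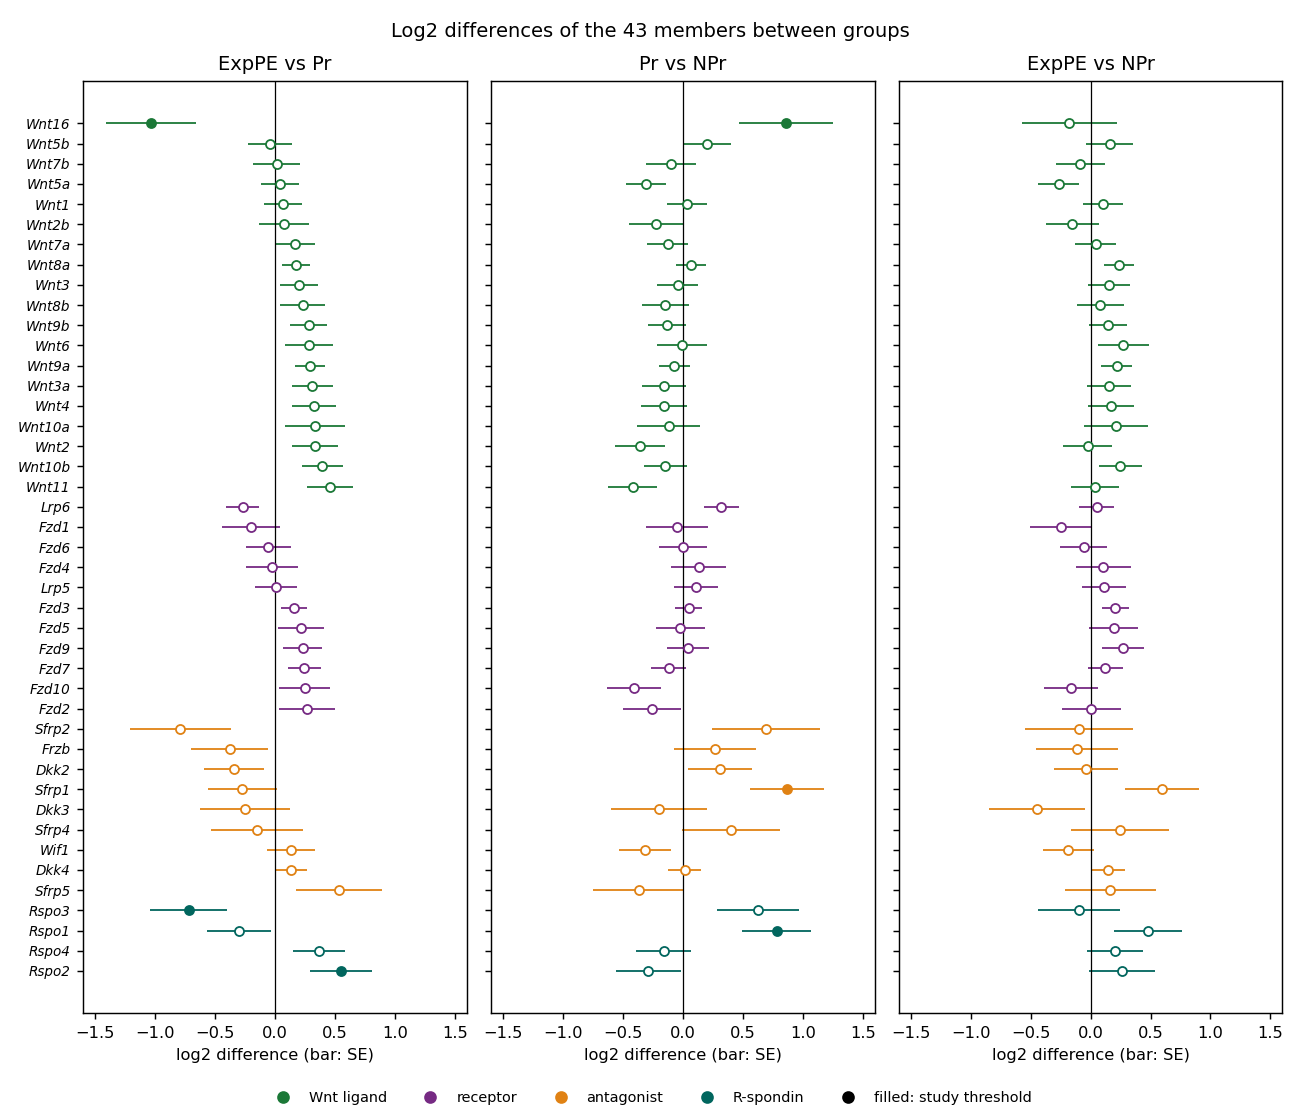
Log2 differences with SE of the 43 members in ExpPE vs. Pr, Pr vs. NPr and ExpPE vs. NPr, coloured by role and ordered within each role by the ExpPE vs. Pr difference. Filled points met the study threshold, which were Wnt16, Rspo3 and Rspo2 in ExpPE vs. Pr, Wnt16, Sfrp1 and Rspo1 in Pr vs. NPr, and no member in ExpPE vs. NPr.

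The comparison of Pr with NPr aortas asks what healthy pregnancy changes. Sfrp1, a Wnt-binding antagonist, Rspo1, an R-spondin best known from ovary development, and Wnt16 were higher in Pr aortas at the study threshold. These were 3 members in the higher direction (background: 2.43% of all genes), and 0 members were lower (background: 0.982% of all genes). None of the members had an adjusted p under 0.05, which 0.212% of all genes had (limma). The unadjusted p was under 0.05 for 4 members (9.3%), and for 5.35% of all genes. Pr is the group shared with the comparison above, so the 2 comparisons are not independent. Markers of other cell types were also compared between Pr and NPr, and none of them had an adjusted p under 0.05 (limma). The 5 measured macrophage markers, all above background, had summed levels (log2) of 10.82 to 12.18 in Pr and 10.59 to 10.93 in NPr, with log2 differences of 0.92 for Cd68, 1.03 for Cd163, 0.63 for Emr1, 0.56 for Mrc1 and 0.38 for Csf1r (adjusted p = 0.092, 0.312, 0.811, 0.926 and 0.9998, limma). Of the fibroblast markers Pdgfra had the largest difference, 0.49 (adjusted p = 0.906, limma), Dcn differed by 0.013, and Pi16 alone was lower, by -0.41. Of the adipocyte markers Ucp1, which marks brown fat, differed by -2.13 (adjusted p = 0.848, limma) and Adipoq by -0.0063, and Lep alone was higher, by 0.13. The summed level of the 7 adipocyte markers, all above background, was 12.29 to 13.88 in Pr and 12.26 to 14.41 in NPr. The part of these markers in the results was not tested.

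Sfrp1 measured 8.20, 9.96, 9.44, 9.56 and 9.10 in ExpPE aortas 1 to 5, 9.38, 9.91, 9.93, 9.45 and 8.94 in Pr aortas 1 to 5 and 8.22, 9.11, 8.71 and 8.58 in NPr aortas 1 to 4. All Pr aortas but animal 5 lay above every NPr aorta. The means were 9.52 ± 0.41 in Pr (SD, n = 5) and 8.65 ± 0.37 in NPr (SD, n = 4), a log2 difference of 0.87 (SE 0.31, adjusted p = 0.606 in limma, exact permutation p = 0.0317). Sfrp1 stayed at the study threshold with each animal left out in turn, with differences of 0.72 to 1.02.

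Rspo1 measured 7.93, 9.68, 8.98, 9.14 and 9.33 in ExpPE aortas 1 to 5, 9.41, 9.65, 9.06, 9.60 and 8.86 in Pr aortas 1 to 5 and 8.32, 8.85, 8.66 and 8.30 in NPr aortas 1 to 4. Every Pr aorta was above every NPr aorta, which held for 1 of the 43 members and for 1.79% of all genes. The log2 difference was 0.78 (SE 0.28, adjusted p = 0.645 in limma), and the exact permutation test gave p = 0.0159, the smallest it allows here. The difference was 0.70 to 0.90 with each animal left out in turn, always at the study threshold.

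Wnt16 had a log2 difference of 0.86 between Pr and NPr (SE 0.40, adjusted p = 0.924 in limma, exact permutation p = 0.0952). Of the NPr aortas, animal 3 was low at 4.62 and the other 3 were between 5.77 and 5.94, above the lowest Pr value of 5.67. Without NPr aorta 3 the difference was 0.55 and without Pr aorta 2 it was 0.64, and neither met the study threshold. Leaving out ExpPE aorta 5, Pr aorta 1, Pr aorta 4 or NPr aorta 4 also took Wnt16 out of the threshold, at 0.86, 0.90, 0.75 and 0.93. It was outside it too among genes above the median intensity (0.86), with arrays centred on their median (0.84), after a further quantile normalization (0.82) and without the 4 arrays of high sensory receptor level (0.99).

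Among the receptors, Lrp6 measured 9.88, 10.17, 10.32, 10.31 and 10.31 in ExpPE aortas 1 to 5, 10.26, 10.78, 10.43, 10.71 and 10.18 in Pr aortas 1 to 5 and 10.16, 10.06, 10.15 and 10.22 in NPr aortas 1 to 4. Pr aortas 2 and 4 were the highest of all animals, and Pr aorta 5 lay among the NPr values. The log2 difference between Pr and NPr was 0.32 (SE 0.15, adjusted p = 0.924 in limma, exact permutation p = 0.0317), a ratio of 1.25, below the fold change of the threshold. The remaining receptors ran between -0.41 for Fzd10 and 0.13 for Fzd4. The Wnt ligands had a median difference of -0.13, with 4 higher and 15 lower, and the all-gene median was -0.02. Wnt11 had the most negative difference, -0.42. Rspo3 differed by 0.63 and Sfrp2 by 0.70, with overlapping groups.

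**Figure D3:**
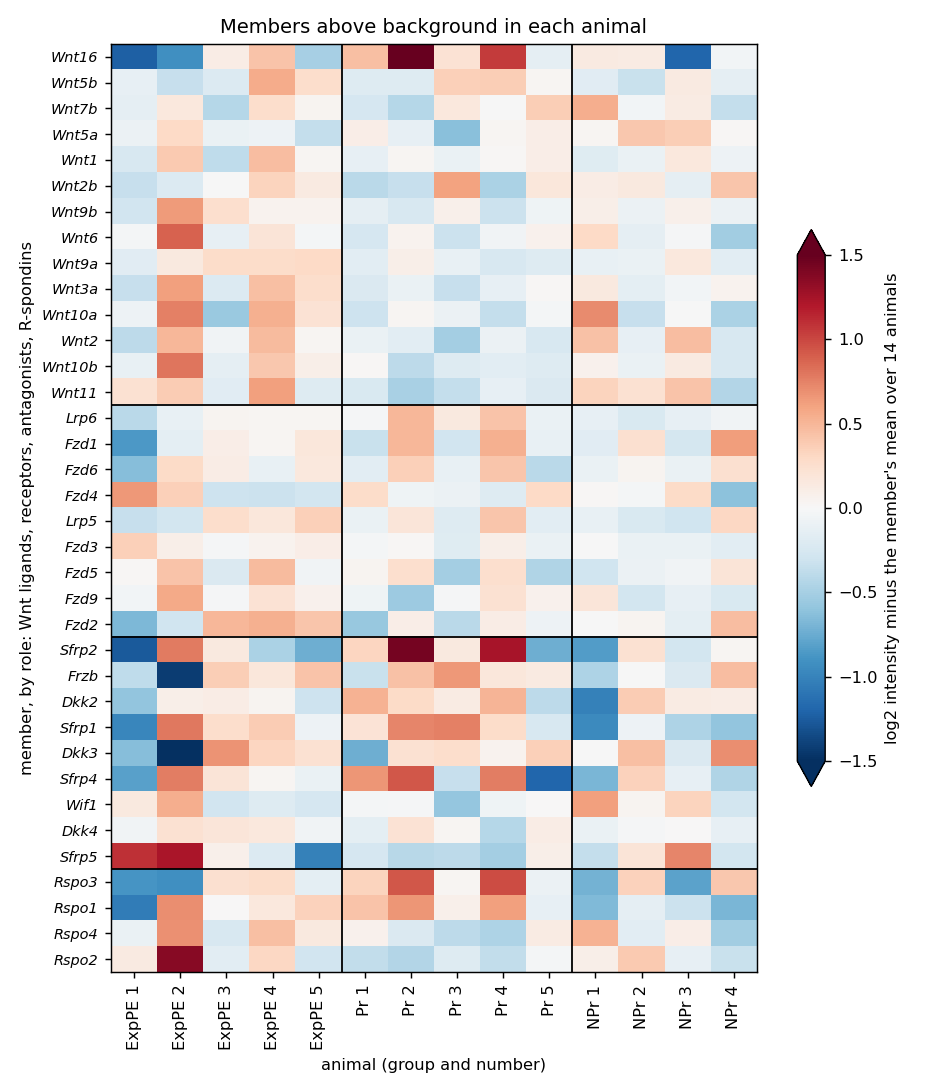
Log2 RMA intensity of the 36 members above background in each aorta, minus the mean of the member over the 14 animals, with ExpPE, Pr and NPr from left to right and the roles from top to bottom. The colour scale ends at 1.5 in both directions. ExpPE aorta 2 stands apart in several rows, with low Frzb and Dkk3 and high Rspo2, and Pr aortas 2 and 4 are high in Wnt16, Rspo3 and Sfrp2. Wnt10a and Wnt10b are among the 36 through their ExpPE mean alone, so their high ExpPE values are not read.

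ExpPE aortas were also set against NPr aortas, which gives the joint effect of pregnancy and LPS. No member reached the study threshold in the higher direction (background: 1.98% of all genes) or in the lower direction (background: 1.14% of all genes), and none had an adjusted p under 0.05, which 0.0982% of all genes had (limma). At an unadjusted p under 0.05 there were 0 of 43 members and 7.61% of all genes. Sfrp1 had the smallest p among the members, and its difference was 0.60 on the log2 scale (SE 0.31, adjusted p = 0.640). ExpPE aorta 1, at 8.20, was the lowest of all animals for Sfrp1, and the other 4 ExpPE aortas lay between 9.10 and 9.96, against 8.22 to 9.11 in NPr aortas. Without ExpPE aortas 1 and 2, or without ExpPE aorta 1 alone, Sfrp1 and Rspo1 met the study threshold, and without NPr aorta 2 Sfrp1 did. Wnt16, Rspo3 and Rspo2 differed from NPr by -0.18, -0.09 and 0.26.

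The mean of all pregnant animals (ExpPE and Pr) was set against NPr, a contrast that the conflict of labels does not touch. Sfrp1 and Rspo1 were higher in the pregnant animals at the study threshold, as 2 members in the higher direction (background: 1.67% of all genes). The lower direction held 0 members (background: 0.920% of all genes), and no member had an adjusted p under 0.05, which 0.176% of all genes had (limma). The log2 difference was 0.73 for Sfrp1 (SE 0.27, adjusted p = 0.727, exact permutation p = 0.044) and 0.63 for Rspo1 (SE 0.25, adjusted p = 0.794, exact permutation p = 0.05). Without the 4 arrays of high sensory receptor level, which leaves 7 pregnant and 3 NPr animals, the differences were 0.37 for Sfrp1 and 0.28 for Rspo1, below the study threshold. NPr aorta 1 has the lowest Sfrp1 value of its group, and without it alone they were 0.59 and 0.56, also outside the threshold. Without NPr aorta 4 Rspo1 left the threshold too, at 0.55.

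The wider pathway was examined through 71 measured genes that act beside the members, from secretion to β-catenin targets, of which 69 were above background. At the study threshold 1 of the 71 was higher and 0 lower in ExpPE vs. Pr (background: 1.72% and 1.00% of all genes), 0 higher and 1 lower in Pr vs. NPr (2.43% and 0.982%), 0 higher and 1 lower in ExpPE vs. NPr (1.98% and 1.14%), and 0 higher and 2 lower in pregnant vs. NPr (1.67% and 0.920%). None had an adjusted p under 0.05 (limma). The unadjusted p was under 0.05 for 6 of the 71 in ExpPE vs. Pr (8.45%, against 8.48% of all genes). Beside Sostdc1 these were Apc2, a relative of the β-catenin scaffold Apc, Btrc, which marks β-catenin for degradation, the planar polarity cadherins Celsr1 and Celsr3, and the adhesion receptor Cd44, with log2 differences of 0.44, 0.19, 0.35, 0.48 and -0.41. Celsr3 was not above background. Between ExpPE and Pr the log2 difference was 0.05 for Porcn, which attaches the lipid to Wnt proteins, -0.07 for Wls, which carries them to the cell surface, and 0.14 for Axin2, a general target of β-catenin. The R-spondin receptors Lgr4, Lgr5 and Lgr6 differed by -0.0059, 0.51 and 0.20, and Ctnnb1, which encodes β-catenin itself, by -0.23. The 17 measured genes that β-catenin induces had a median difference of 0.13 between ExpPE and Pr and of -0.03 between Pr and NPr, beside 0.02 and -0.02 for all genes. The medians of the sensory receptor genes were close to those of the 17 genes, at 0.12 and -0.03.

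Gpc3, a cell surface proteoglycan that binds Wnt ligands, measured 7.81, 8.58, 8.73, 8.64 and 8.86 in ExpPE aortas 1 to 5, 7.94, 8.32, 9.04, 8.56 and 8.85 in Pr aortas 1 to 5 and 9.11, 9.46, 9.42 and 9.37 in NPr aortas 1 to 4. Each of the 10 pregnant aortas was below each NPr aorta, which held for 0.114% of all genes. The log2 difference was -0.80 for all pregnant animals against NPr (SE 0.20, adjusted p = 0.25, limma), -0.79 in Pr vs. NPr (adjusted p = 0.352) and -0.81 in ExpPE vs. NPr (adjusted p = 0.598). With arrays weighted by quality the adjusted p was 0.0285 for the pregnant animals (-0.80) and 0.0231 in Pr vs. NPr (-0.85, limma). It was also under 0.05 in both with the replicate number as a block, so the call at an adjusted p of 0.05 depends on the setting. The exact permutation test gave p = 0.002 for all pregnant animals against NPr, the smallest that 10 against 4 animals allow. With each animal left out in turn the difference of the pregnant animals stayed between -0.88 and -0.71. Nkd2, an inhibitor inside the cell that β-catenin induces, differed by -0.52 between pregnant and NPr aortas (adjusted p = 0.885, limma), and by -0.35 without NPr aorta 2, its highest value. Leaving out ExpPE aorta 1 or 4, Pr aorta 1 or 3, or NPr aorta 1, 2 or 4 took it out of the threshold, with differences between -0.56 and -0.35.

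Sostdc1, a secreted antagonist of Wnt and BMP signals, measured 6.76, 7.21, 7.14, 5.73 and 4.79 in ExpPE aortas 1 to 5, 5.20, 5.73, 4.84, 5.13 and 5.98 in Pr aortas 1 to 5 and 5.55, 6.01, 6.65 and 5.71 in NPr aortas 1 to 4. ExpPE aortas 1, 2 and 3 were above every other pregnant and non-pregnant aorta, and ExpPE aortas 4 and 5 lay within the Pr range or below it. The log2 difference between ExpPE and Pr was 0.95 (SE 0.41, adjusted p = 0.5745, limma), with p = 0.127 in the exact permutation test, and 0.51 without ExpPE aortas 1 and 2. Leaving out ExpPE aorta 1, 2 or 3 or Pr aorta 1, 3 or 4 alone took it out of the study threshold, with differences of 0.84, 0.73, 0.75, 0.91, 0.81 and 0.89 in that order.

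**Figure D4:**
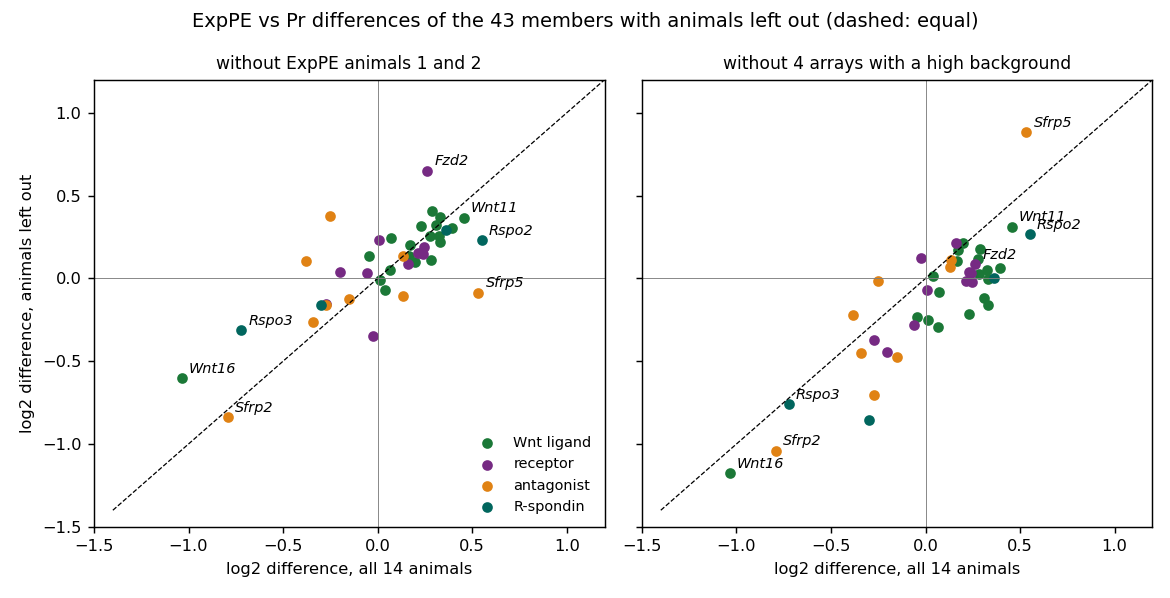
ExpPE vs. Pr log2 differences of the 43 members with all 14 animals (horizontal axis) against those with animals left out (vertical axis), on the left without ExpPE aortas 1 and 2 and on the right without the 4 arrays whose mean over sensory receptor genes exceeded 2.8, with a dashed line where both are equal. Wnt16 lies at -1.04 with all animals and at -0.60 on the left, and on the right most ligands lie below the dashed line. The right panel keeps only aortas 1 and 3 of the ExpPE group.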

How the data were processed

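Expression was measured with 1 array per animal in 14 abdominal aortas. The authors made the deposited intensity values with the RMA method (robust multichip average with quantile normalization) in the MADMAX pipeline with probes regrouped by gene. The RMA version is not given in the sources used here. The deposited intensities are on a linear scale, so log2 was taken here, whereas the plan had assumed log2 values. Columns with the authors' own fold changes, p-values and q-values hold their comparisons and were not used, and 0 per-animal columns were left out. The number of arrays limits the precision.

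Groups were compared over all 19357 genes with limma 3.58.1 under R 4.3.3. A single model held a mean for each group, with moderated variances, an intensity trend and two-sided tests, and the Benjamini-Hochberg adjustment ran over the whole table. Exact permutation tests of single genes over the animals (184 tests, not adjusted) were added after seeing the data. The methods describe their test as paired but name no pairing variable, so no pairs were used. Values per animal are given for members at the study threshold in a comparison, or with an unadjusted p under 0.05 and the smallest p of their role. Further values of Sfrp2, Sfrp5, Frzb, Dkk3, Fzd2 and other members were chosen after they were seen. The members and gene lists were chosen with earlier results of these data known. The fit was also run on simulated data with independent normal noise. There, 26% of the genes changed by 0.5 on the log2 scale and 60% of those changed by 1 had an adjusted p under 0.05 (limma). The simulation held no array background, mixed tissue or code letters, so it does not show how the fit behaves with these. Ndp, Axin1 and Sp5 were not found in the table. Tables and figures were made with Python 3.11.15, pandas 2.3.3, scipy 1.17.1 and matplotlib 3.10.9.

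Alternatives were other prior variances, a fit of only the groups compared, array weights, filters on dim genes, centring on the median, a further quantile normalization, the sample titles as groups, the replicate number as a block, the letter of the code in the array names (whose meaning the sources used here do not give) as a random block, each animal left out, and ExpPE animals 1 and 2 left out. The block with the groups of the column names and the removal of 4 arrays with a high sensory receptor level were added after seeing the data. That removal keeps only animals 1 and 3 of the ExpPE group.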

Additional observations from a re-analysis of the deposited data

Results flagged for a closer look

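Among 138 combinations of a gene and a group, 5 held 1 animal whose gap to the nearest other animal was large for the range of its group, and chance alone flags about 1 in 20. Dkk3 was low in Pr aorta 1, at 9.13, with the next Pr value at 9.92. Wif1 was low in Pr aorta 3, at 3.73, with the next at 4.24. In NPr aorta 3, Wnt16 was low at 4.62, with the next at 5.77, and Wnt9a was high at 5.62, with the next at 5.35. Gpc3 was low in ExpPE aorta 1, at 7.81, with the next at 8.58. Pr aorta 1 and NPr aorta 3 had the highest skeletal muscle marker levels of their groups (14.96 and 12.02), and the part of this in the values was not tested.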

How the results depend on the processing

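No member passed the adjusted p under any alternative. Counts at the study threshold (3 members for ExpPE against Pr, 3 for Pr against NPr, 0 for ExpPE against NPr, 2 for pregnant against NPr) depended on the setting, and where no construction is named the cause was not tested. The share of all genes at the threshold can move with the setting too and is not given for the alternatives. Their counts are therefore not read as results about the members. A further quantile normalization gave 1 in ExpPE vs. Pr (Wnt16) and 1 in ExpPE vs. NPr (Sfrp1). Without ExpPE animals 1 and 2 there was 1 in ExpPE vs. Pr (Fzd2) and 2 in ExpPE vs. NPr. Without the 4 arrays of high sensory receptor level there were 0 in pregnant vs. NPr, and the 3 for ExpPE against Pr were other genes but for Wnt16. With each animal left out in turn the counts were 1 to 5 for ExpPE against Pr, 2 to 5 for Pr against NPr, 0 to 2 in ExpPE vs. NPr and 0 to 2 in pregnant vs. NPr. The animals that moved them by over 1.5 times were ExpPE 1 (1), ExpPE 3 (5), Pr 1 (1) and Pr 2 (1) for ExpPE against Pr, Pr 5 (5) and NPr 4 (5) for Pr against NPr, ExpPE 1 (2) and NPr 2 (1) for ExpPE against NPr, and NPr 1 (0) and NPr 4 (1) for pregnant against NPr. With the sample titles as groups, by construction, Pr vs. NPr gave 0 and ExpPE vs. NPr 3, and the ExpPE vs. Pr differences were 1.04 for Wnt16, 0.72 for Rspo3, -0.55 for Rspo2, -0.39 for Wnt10b, -0.46 for Wnt11, -0.29 for Wnt9a and -0.95 for Sostdc1, with -0.18 for Wnt16 in Pr vs. NPr. The deviations of animals with the same number from their group means had correlations between -0.398 and 0.395 (7 of 13 over 0.1). With no reference for such values, this does not settle whether the numbers mark pairs. With the number as a replicate block, Pr vs. NPr gave 5 and ExpPE vs. NPr 1 by the column names, and 1 and 5 by the titles, where the ExpPE vs. Pr differences above were the same and Wnt16 in Pr vs. NPr was -0.073. With the block the adjusted p of Gpc3 was 0.0343 in Pr vs. NPr and 0.017 in pregnant vs. NPr (limma). A fit of only the groups compared gives no value for pregnant vs. NPr. The code letters of the array names held mostly 1 group each. No letter held both Pr and ExpPE arrays, or both Pr and NPr arrays. In ExpPE vs. Pr and in Pr vs. NPr the letter and the group therefore cannot be told apart. The letter as a random block (correlation within letters -0.0893) moved no count by over 1.5 times, which cannot test its part in those comparisons. Within the letter shared by ExpPE animals 1 and 2 and NPr animal 4, ExpPE minus NPr was -1.03 for Wnt16, -1.31 for Rspo3, 1.08 for Rspo2, 0.50 for Rspo1 and 0.50 for Sfrp1. This sets 2 animals against 1, and over the whole groups the differences were -0.18, -0.09, 0.26, 0.48 and 0.60 in that order. The values within the letter therefore do not show the group differences free of the letter.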
